A study of Mus musculus with 40 samples.

Results

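Conventionally raised (CON) Swiss Webster mice were compared 1 hr after a social interaction (CON-SI, 8 libraries) with naive mice of the same kind (CON, 4 libraries). These 12 samples are all those that the labels place in either group, out of 40 in the series. The series measured RNA from the amygdala of conventionally raised, germ-free (GF) and germ-free mice colonised from weaning (exGF), each naive and after social interaction. Germ-free mice are raised without any microorganisms. All mice were male Swiss Webster, 10 weeks old, with no engineered allele or drug named for them. CON and CON-SI mice were offspring of conventional breeding pairs, and GF and exGF mice of germ-free pairs. The amygdala was dissected by hand from the left hemisphere. CON-SI mice were accustomed to the test room and to an empty arena of 3 chambers, and were then free to approach an unfamiliar male mouse in a wire cage or an object. No such handling is described for naive CON mice. Each CON library held a pool of RNA from 2 animals by the study's methods, or 2 to 3 by the series' description, whereas each CON-SI library came from 1 mouse. Social contact, handling, a new arena and pooling therefore cannot be told apart in this comparison. A pool averages its animals, so ranges over CON libraries are not ranges over single mice, as those over CON-SI libraries are. Narrow CON ranges and wide CON-SI ranges below are to be read with this limit, as are counts of groups that do not overlap. The test used the same estimate of spread for both groups.

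The amygdala weighs the emotional value of what an animal meets, including other animals. When neurons fire, calcium and cAMP signals reach the nucleus within minutes, and kinases of the MAPK cascade and CREB switch on immediate early genes, many of which code for transcription factors that need no new protein to be made. These factors then act on later genes for synaptic proteins, growth factors and secreted peptides, while phosphatases and inhibitors made in the same wave switch the cascade off again. Transcripts of the first wave peak and decay sooner than those of later targets.

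Every library held between 10479993 and 17465387 counts over 43629 genes, and no pair of libraries within a group agreed within sampling noise. Ribosomal RNA set 2 CON libraries apart: Gm42418, a locus lying over a repeat of the 45S ribosomal RNA, held 32.3% of all counts of CON-P1 and 18.5% of those of CON-P3, but 0.0727% in CON-P2, 0.0379% in CON-P4 and 0.0109% to 1.26% in the 8 CON-SI libraries. Mitochondrial ribosomal RNA took 5.57% to 17.4% in CON and 2.08% to 8.92% in CON-SI. The labels name 2 outside providers of library preparation and do not say which made which library, whereas the study's methods name Vertis Biotechnology alone. If the labels hold, a difference between providers cannot be told apart from the groups. Fewer counts from protein-coding genes were left in those 2 libraries (44.4% and 61.9%) than in the other 10 (78.7% to 86.8%). The counts of called genes in the gene lists below are therefore also given without CON-P1 and CON-P3. Levels are given as CPM, TMM-normalised counts scaled to equal library size. Markers of the amygdala nuclei were present in every library, with a summed level of 412 to 481 CPM in CON and 301 to 429 CPM in CON-SI. Those of the neighbouring cortex and piriform cortex were present too, at 711 to 860 CPM in CON and 688 to 1158 CPM in CON-SI. Presence of such markers therefore does not test the tissue label.

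At an adjusted p of at most 0.1 (edgeR's quasi-likelihood test, Benjamini-Hochberg adjustment), 357 of 15220 genes tested rose in CON-SI, which is 2.35%, and 209 fell, which is 1.37%. Of the 357, 155 rose by over 0.5 on the log2 scale, and of the 209, 134 fell by over 0.5. All 8 CON-SI libraries lay above all 4 CON libraries for 364 genes (2.39%) and below them for 173 (1.14%). Against CON-P2 and CON-P4 alone, with fewer libraries to lie apart from, these were 862 and 696. Without CON-P1 and CON-P3 the same test called 18 risen and 8 fallen genes, all 26 of which were among the 566. The log2 fold change moved by over 0.5 in 12 of the 566, of which 10 had fallen, among them the mitochondrial ribosomal RNA mt-Rnr1 (-3.81 with and -0.42 without those 2 libraries). All 357 risen and 203 of the 209 fallen genes kept their sign, and the median log2 fold change was 0.46 with and 0.47 without those 2 libraries for the risen genes, and -0.60 and -0.54 for the fallen ones.

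**Figure D1:**
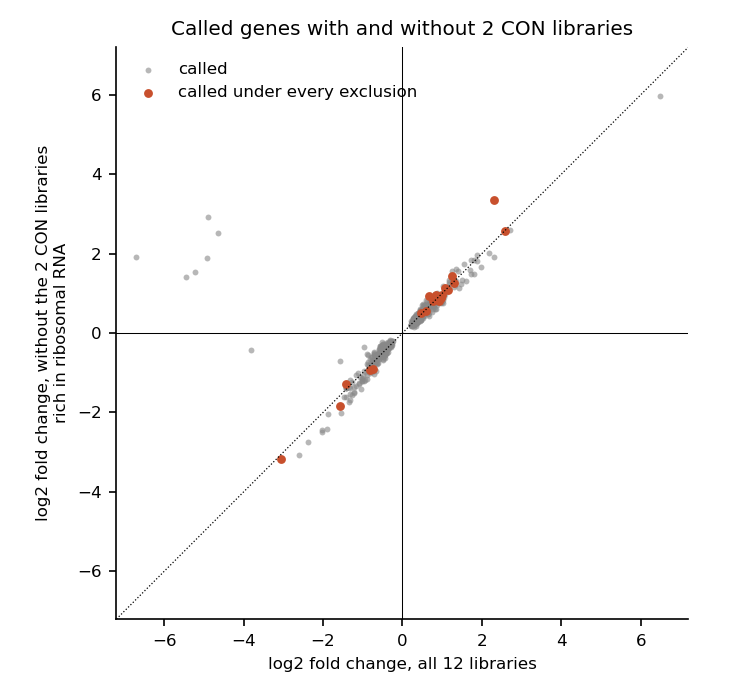
Each point is 1 of the 566 genes called in CON-SI against CON, with its log2 fold change over all 12 libraries on the x axis and without the CON libraries CON-P1 and CON-P3 on the y axis (dotted line: equal values; red: the 22 genes called under every exclusion). Most points lie near the line, and the 6 points at the upper left are Gm42418, Gm24187, Lars2, Gm23935, Gm24270 and Mir6236, whose sign turned.

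The 6 that changed sign were loci with reads like those of ribosomal RNA. Gm42418 had a log2 fold change of -6.71 over all libraries and 1.90 without CON-P1 and CON-P3, and Lars2 (the mitochondrial leucyl-tRNA synthetase) had -5.22 and 1.53. The small loci Gm24187 (-5.45 and 1.40), Gm23935 (-4.92 and 1.90), Gm24270 (-4.90 and 2.92) and Mir6236 (-4.63 and 2.51) turned with them. They head the list of falls by size, and their levels were high in CON-P1 and CON-P3 alone among the CON libraries. Among the CON-SI libraries Gm42418 held 1.26% of the counts in CON-S7 and 0.178% in CON-S2, the next highest. In CON-P2 and CON-P4 it held 0.0727% and 0.0379%. The positive value of Gm42418 without CON-P1 and CON-P3 therefore rests largely on CON-S7 and does not show a rise across CON-SI.

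A set of 22 genes passed the test with all libraries, with each of the 12 libraries left out in turn, and without CON-P1 and CON-P3. Of these, 17 rose (0.112% of the genes tested) and 5 fell (0.0329%). The risen ones were Fosb, Inhba, Fosl2, Dio2, Per2, Tsc22d3, Dusp4, Banp, Ppp1r3c, Bdnf, Pcsk1, Hspa5, P4ha1, Cables1, Rims4, Trib2 and Fkbp4, and the fallen ones Gm3608, Jhy, Kcnj16, Zbtb20 and Tgfb2. In each of the 22 the CON and CON-SI ranges did not overlap. The exons of Dio2, Banp, Bdnf, Cables1, Zbtb20 and Tgfb2, as of Cdkn1a, Gpr3, Plin4, Fst, Hspa1a, Dsp, Irs4 and Glo1 named further on, share bases with genes on the opposite strand, and since reads were counted without regard to strand, the partners' reads cannot be told apart from theirs.

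**Figure D2:**
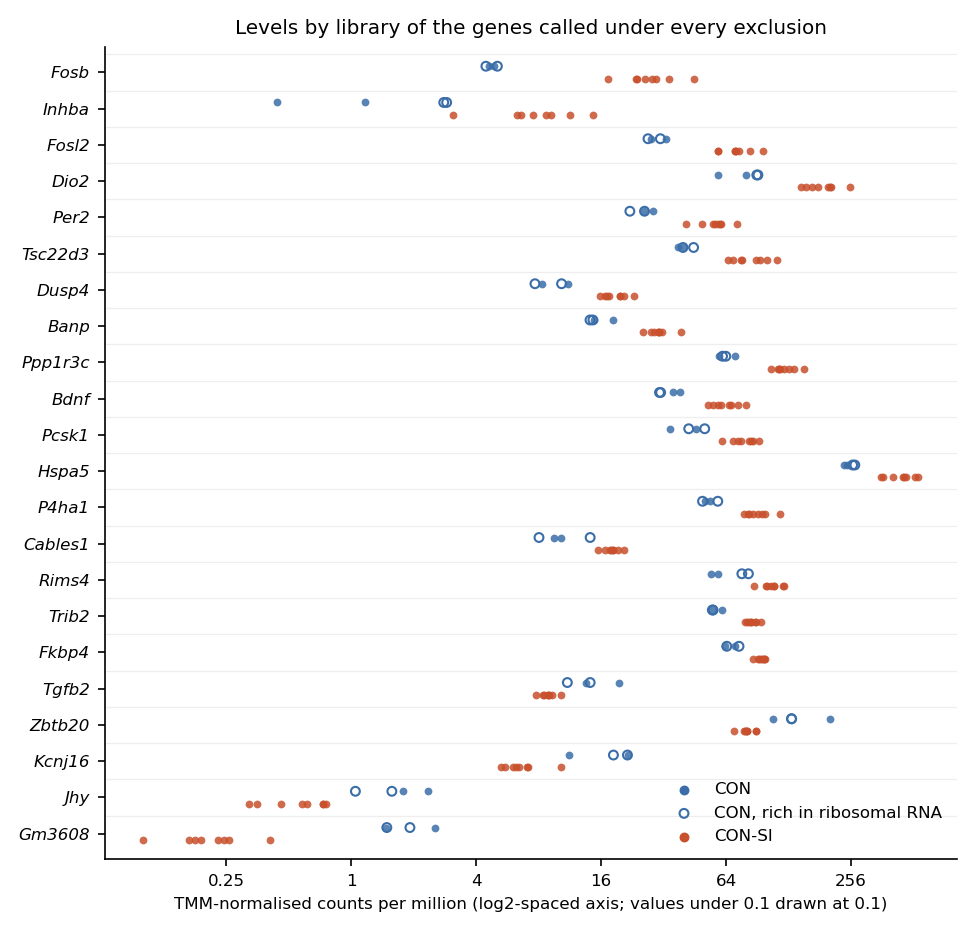
Levels by library, as TMM-normalised CPM on a log2-spaced axis, of the 22 genes called under every exclusion (blue: 4 CON libraries, open circles CON-P1 and CON-P3; red: 8 CON-SI libraries). In every gene shown, all CON-SI points lie on 1 side of all CON points.

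Among the immediate early transcription factors, 12 of 28 tested rose (42.9%) and 1 fell (3.6%), where 2.35% and 1.37% of all genes did. Shares in the lists below are to be read against the same shares over all genes. The lists were drawn up with earlier results of these data known. These shares therefore describe the lists and are not a test of them. The median log2 fold change of the 28 was 0.63, against -0.01 over all genes tested, and without CON-P1 and CON-P3 it was 0.51, with 2 members (Fosb and Fosl2) still called. Fosb, a partner of Jun proteins in the AP-1 factor (chr7:19302696-19310051), stood at 5.07, 4.64, 4.46 and 4.87 CPM in the 4 CON libraries (CON-P1 to CON-P4, the order used throughout) and from 17.2 to 44.6 with a median of 27.1 in CON-SI. The naive libraries were nearly level and all CON-SI libraries lay far above them. Fosb rose by 2.58 ± 0.23 (log2 fold change ± SE, as for every rise and fall below) with an adjusted p of 0.00021. Fosl2, which codes for another AP-1 partner (chr5:32135801-32157842), stood at 26.9, 33, 30.9 and 27.7 CPM in CON and from 58.8 to 95.9 with a median of 71.1 in CON-SI, and rose by 1.29 ± 0.13 (adjusted p = 0.00044). Its groups were also fully apart.

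Fos, the classic marker of recently active neurons (chr12:85473890-85477273), had 7.17, 13.8, 11.6 and 7 CPM in CON and from 15.2 to 38.9 with a median of 23.3 in CON-SI. The gap between the groups was narrow, with the highest CON library just under the lowest CON-SI library, and the call (log2 fold change 1.34 ± 0.28, adjusted p = 0.033) was lost without CON-P1 and CON-P3 (adjusted p = 0.24) although the estimate was 1.30. Egr1 (62.7, 73.1, 76.6 and 58.3 CPM in CON, from 105 to 209 with a median of 140.5 in CON-SI) rose by 1.18 ± 0.20 (adjusted p = 0.012). Egr2, which like Egr1 codes for a zinc finger factor of synaptic plasticity, had 3.15, 5.96, 3.33 and 5.97 CPM in CON and from 11.7 to 38.4 with a median of 15.1 in CON-SI, and rose by 1.98 ± 0.36 (adjusted p = 0.016). Both had separate groups.

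The same family's Egr3 and Egr4 rose by 1.12 ± 0.29 and 0.95 ± 0.26 (adjusted p = 0.068 and 0.085). Nr4a3, an orphan nuclear receptor, had 32.7, 41.1, 30.7 and 27.7 CPM in CON and from 48.9 to 78 with a median of 66.4 in CON-SI and rose by 0.96 ± 0.14 (adjusted p = 0.0046). The other risen members were Crem (0.76), the cAMP-responsive modulator, Nfil3 (0.65), Klf10 (0.52) and Srf (0.45), the serum response factor that itself drives immediate early genes. Btg2, an antiproliferative cofactor, fell by 0.49 ± 0.11 with an adjusted p of 0.047.

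Several of the fastest members did not pass. Npas4, which neurons switch on in response to calcium alone, had 9.09, 6.84, 9.45 and 5.01 CPM in CON and from 5.11 to 11.2 with a median of 6.86 in CON-SI, with a log2 fold change of 0.05 ± 0.27 (adjusted p = 0.95) and fully overlapping groups. Jun had -0.03 ± 0.20 (adjusted p = 0.96), Junb 0.46 ± 0.19 (0.24), Nr4a1 0.62 ± 0.26 (0.26) and Ier5 0.79 ± 0.28 (0.18). For the last 3 the estimate was positive but the spread among CON-SI mice was wide, from 17.1 to 57.1 CPM for Ier5.

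Promoters were read from RefSeq (build GRCm38.p6) as the 250 bases before the start site, on the gene's own strand. An entry was found for 8 of the 12 risen factors. Here and below, shares over all promoters count single entries, while a gene was counted if any of its entries matched. Genes with several entries, such as Egr2 with 5, had more chances to match, so the shares and gene counts are not on the same scale. The serum response element core, the letter pattern that Srf binds, was found in 1.47% of all 32851 promoters and in those of Egr2 and Srf itself. The Egr2 promoter (chr10:67537316-67537565, forward strand) is shown because Egr2 and the factor that binds this element rose together, with the match in capitals.
Egr2: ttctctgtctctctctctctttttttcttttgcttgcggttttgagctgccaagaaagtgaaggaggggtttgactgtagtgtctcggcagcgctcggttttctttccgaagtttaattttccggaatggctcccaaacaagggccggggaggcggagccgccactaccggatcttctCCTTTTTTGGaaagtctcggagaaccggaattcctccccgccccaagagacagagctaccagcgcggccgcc
The shorter motif TGACG, 1 arm of the cAMP response element, searched on both strands, was in 17.8% of all promoters and in 7 of these 8 (Egr2, Egr4, Fos, Fosb, Nfil3, Nr4a3 and Srf). A match is a string of letters and says nothing about whether a factor was bound. The factor list was made up of known immediate early genes, so these counts are not independent of how it was chosen.

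Of 34 synaptic and secreted effectors that neuronal activity induces, 12 rose (35.3%) and 0 fell. The median log2 fold change over the list was 0.44 (0.49 without CON-P1 and CON-P3, where Pcsk1, Inhba and Bdnf were called). Inhba, the subunit of activin A (chr13:16011851-16031621), had 2.80, 0.441, 2.89 and 1.17 CPM in CON and from 3.10 to 14.6 with a median of 8.09 in CON-SI. The CON libraries themselves varied widely, with CON-P1 and CON-P3 highest, and the lowest CON-SI library lay close above them. Inhba rose by 2.32 ± 0.46 (adjusted p = 0.025), and without CON-P1 and CON-P3 the log2 fold change was 3.36. Bdnf, the neurotrophin that strengthens active synapses (chr2:109674700-109727007), went from 30.6, 35.6, 31 and 38.4 CPM in CON to from 52.2 to 79.6 with a median of 63.3 in CON-SI, a log2 fold change of 0.92 ± 0.12 (adjusted p = 0.002). Pcsk1, the convertase that cuts prohormones into active peptides (chr13:75089826-75134861), went from 42.3, 45.9, 50.5 and 34.4 to from 61.4 to 91.9 with a median of 78.9 CPM, and rose by 0.85 ± 0.12 (adjusted p = 0.004). In both the groups were apart.

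Arc, whose protein moves glutamate receptors out of synapses, had 44.6, 61.8, 71.4 and 66.5 CPM in CON and from 87.2 to 471 with a median of 167 in CON-SI. It varied widely among the 8 CON-SI mice without overlapping CON, and rose by 1.86 ± 0.42 (adjusted p = 0.04). Homer1, a postsynaptic scaffold whose short form is made on demand, had 248, 246, 329.9 and 259 CPM in CON and from 428 to 825 with a median of 596 in CON-SI, a rise of 1.17 ± 0.19 (adjusted p = 0.0085). Cdkn1a, the cell cycle inhibitor p21, had 2.27, 3.02, 3.06 and 1.79 CPM in CON and from 5.46 to 13.1 with a median of 9.80 in CON-SI and rose by 1.88 ± 0.28 (adjusted p = 0.0058). Gpr3 (1.43), a receptor that raises cAMP, Nptx2 (1.06), a secreted pentraxin that gathers receptors at synapses, Pim1 (1.04), Sik1 (1.01), Gadd45b (0.82) and Plk2 (0.38) were the other risen members.

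The full cAMP response element, TGACGTCA, was in 1.55% of all promoters. Among the 17 genes that rose under every exclusion, 12 had a promoter entry and 2 of those, Dio2 and Pcsk1, held it. Both are shown with the element in capitals, Dio2 at chr12:90739039-90739288, reverse strand and Pcsk1 at chr13:75089607-75089856, forward strand.
Dio2: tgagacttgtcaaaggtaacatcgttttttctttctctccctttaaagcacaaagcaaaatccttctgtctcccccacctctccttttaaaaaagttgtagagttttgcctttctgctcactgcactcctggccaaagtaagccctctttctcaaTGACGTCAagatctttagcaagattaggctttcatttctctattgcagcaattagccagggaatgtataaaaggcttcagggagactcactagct
Pcsk1: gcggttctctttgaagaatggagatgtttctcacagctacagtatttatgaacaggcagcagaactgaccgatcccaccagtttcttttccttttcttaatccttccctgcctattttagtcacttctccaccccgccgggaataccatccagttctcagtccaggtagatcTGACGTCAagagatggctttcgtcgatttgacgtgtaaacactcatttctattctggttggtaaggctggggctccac
In Dio2 the element began 95 bases before the RefSeq start site and in Pcsk1 78 bases before its own. RefSeq start sites differ from the gene positions printed here, which came from GENCODE. That of Dio2 lies upstream of its printed gene position.

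In the MAPK cascade, inhibitors and kinases were counted apart. Of 19 phosphatases and feedback inhibitors tested, 5 rose (26.3%) and 0 fell (median log2 fold change 0.32). Of 49 cascade kinases and Ras proteins, 2 rose (4.1%) and 1 fell (2.0%), with a median of 0.08. These kinase shares are near the 2.35% and 1.37% over all genes. Dusp4, a nuclear phosphatase that switches off ERK (chr8:34807297-34819894), had 7.69, 8.31, 10.3 and 11.1 CPM in CON and from 15.8 to 23.1 with a median of 18.6 in CON-SI. No library overlapped, and Dusp4 rose by 0.99 ± 0.13 (adjusted p = 0.0021). Dusp6, its cytoplasmic relative, had 35.6, 55, 55.6 and 49.7 CPM in CON and from 63 to 119.6 with a median of 82.3 in CON-SI, and rose by 0.77 ± 0.18 (adjusted p = 0.043). Dusp14 (0.89), Spred1 (0.56), which holds back Ras signalling, and Errfi1 (0.44), an inhibitor of the EGF receptor, were the others. Dusp1, another member of the family, had a log2 fold change of 0.03 ± 0.26 (adjusted p = 0.97). Of the kinases, Mapk11, a p38 isoform, and the atypical Mapk4 rose by 0.71 ± 0.19 and 0.53 ± 0.11 (adjusted p = 0.076 and 0.027), and Rps6ka5, the kinase MSK1, fell by 0.37 ± 0.10 (0.084). Without CON-P1 and CON-P3, Dusp4 alone of both lists was called.

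Genes for chaperones of the endoplasmic reticulum (ER) and of the cytosol were counted next. The unfolded protein response is the programme by which cells enlarge their capacity to fold secreted proteins. In its list, 14 of 39 genes tested rose (35.9%) and 0 fell. The list's median was 0.20 on the log2 scale (0.30 without CON-P1 and CON-P3, with Hspa5 alone called). Hspa5, the ER chaperone BiP (chr2:34771970-34777547), had 267, 245, 260.2 and 238 CPM in CON and from 356 to 539 with a median of 458 in CON-SI, a rise of 0.82 ± 0.11 (adjusted p = 0.0027). The 4 CON libraries lay close together and all CON-SI libraries lay well above them. Xbp1, a transcription factor of this programme, had 35.3, 39.5, 48.4 and 40.8 CPM in CON and from 60.4 to 102 with a median of 69.4 in CON-SI and rose by 0.85 ± 0.14 (adjusted p = 0.0099). Sdf2l1, a co-factor of BiP, had 1.57, 2.65, 1.66 and 1.85 CPM in CON and from 3.75 to 8.45 with a median of 5.36 in CON-SI and rose by 1.51 ± 0.24 (adjusted p = 0.0088). Both pairs of groups were separate.

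Dnajc3, which joins BiP and also restrains the kinase PERK, had 68.9, 71.7, 74.1 and 79.4 CPM in CON and from 90.6 to 120.1 with a median of 106 in CON-SI and rose by 0.52 ± 0.08 (adjusted p = 0.0074). Creld2, a secreted ER stress protein, had 7.17, 7.28, 9.80 and 9.47 CPM in CON and from 13.2 to 24.5 with a median of 16 in CON-SI and rose by 0.99 ± 0.17 (adjusted p = 0.014). Manf (0.64), a secreted ER stress factor, Herpud1 (0.80), which serves the removal of misfolded proteins, the disulfide isomerase Pdia4 (0.53), the lectin chaperone Calr (0.38), the transcription factor Ddit3 (0.46) and Ppp1r15b (0.38), which restores translation, rose too. The remaining 3 were Atf4, Pdia6 and Dnajb11.

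Some of these genes share a promoter sequence. The ER stress response element, bound by NF-Y together with Atf6 or Xbp1, occurred in 37 of 32851 promoters (0.113%), searched on both strands. Of the 14 risen ER genes, 12 had a promoter entry, and 5 of these held the element: Hspa5, Dnajc3, Creld2, Calr and Pdia6. The list was made up of known ER stress genes, many of which are known through this element, so the count describes the list and is not independent of how it was chosen. The promoters are printed with the element in capitals, at chr2:34771840-34772089, forward strand for Hspa5, chr14:118937682-118937931, forward strand for Dnajc3, chr15:88819396-88819645, forward strand for Creld2, chr8:84846932-84847181, reverse strand for Calr and chr12:17266339-17266588, forward strand for Pdia6.
Hspa5: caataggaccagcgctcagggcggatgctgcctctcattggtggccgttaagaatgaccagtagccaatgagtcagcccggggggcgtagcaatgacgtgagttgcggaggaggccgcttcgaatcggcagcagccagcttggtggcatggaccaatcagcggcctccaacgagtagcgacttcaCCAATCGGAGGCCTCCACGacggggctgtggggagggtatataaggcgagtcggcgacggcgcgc
Dnajc3: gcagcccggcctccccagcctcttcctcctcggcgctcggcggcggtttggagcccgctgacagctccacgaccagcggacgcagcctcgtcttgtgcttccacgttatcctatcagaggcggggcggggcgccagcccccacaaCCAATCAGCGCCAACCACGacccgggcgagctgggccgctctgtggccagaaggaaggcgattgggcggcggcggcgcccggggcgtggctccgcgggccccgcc
Creld2: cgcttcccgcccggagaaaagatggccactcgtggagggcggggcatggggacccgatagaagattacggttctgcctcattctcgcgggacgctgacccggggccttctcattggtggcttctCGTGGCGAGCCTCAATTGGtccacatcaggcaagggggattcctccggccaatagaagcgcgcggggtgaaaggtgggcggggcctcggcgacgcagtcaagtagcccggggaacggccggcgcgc
Calr: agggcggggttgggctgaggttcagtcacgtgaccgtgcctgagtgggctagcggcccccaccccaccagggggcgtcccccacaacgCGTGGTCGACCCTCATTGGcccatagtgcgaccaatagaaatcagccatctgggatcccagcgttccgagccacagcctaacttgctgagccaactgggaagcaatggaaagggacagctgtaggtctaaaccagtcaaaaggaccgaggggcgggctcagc
Pdia6: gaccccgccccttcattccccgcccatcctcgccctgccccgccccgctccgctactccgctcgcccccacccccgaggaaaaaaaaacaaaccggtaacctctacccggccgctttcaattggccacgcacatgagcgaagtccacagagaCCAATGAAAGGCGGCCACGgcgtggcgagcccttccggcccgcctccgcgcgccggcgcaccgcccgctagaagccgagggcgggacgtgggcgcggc

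Of 35 cytosolic heat shock chaperones tested, 13 rose (37.1%) and 0 fell. The median was 0.20 (0.23 without CON-P1 and CON-P3, where Fkbp4 alone was called). Dnajb1, the main co-chaperone of Hsp70, had 25.2, 28, 23.7 and 29.1 CPM in CON and from 39.9 to 75.4 with a median of 53.8 in CON-SI and rose by 1.00 ± 0.15 (adjusted p = 0.0075). Fkbp4, a co-chaperone of Hsp90 in glucocorticoid receptor complexes (chr6:128429735-128438677), had 64.5, 63.3, 73.8 and 70.4 CPM in CON and from 86.2 to 98.9 with a median of 94.4 in CON-SI and rose by 0.47 ± 0.07 (adjusted p = 0.0042). It was the smallest of the rises that held under every exclusion, with little spread in either group. The inducible Hsp70 gene Hspa1b had 3.15, 6.47, 3.41 and 4.81 CPM in CON and from 5.87 to 24.1 with a median of 11.8 in CON-SI, and rose by 1.60 ± 0.36 (adjusted p = 0.043) although 1 CON library overlapped CON-SI. Hspa1a rose by 1.29 ± 0.27, but the pair are near-identical copies and the split of reads between them is uncertain. Hsph1 (0.51), Dnajb5 (0.89), Chordc1 (0.52) and the constitutive Hspa8 (0.41) rose as well. A heat shock element, GAANNTTC or TTCNNGAA, was in 12.8% of all promoters. Of the 12 risen chaperone genes with an entry, 6 held it in any entry: Dnajb4, Fkbp4, Hspa1a, Hspa1b, Hspb1 and Hsph1. This list was made up of known heat shock genes, so the count is not independent of how it was chosen.

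Hormone-linked genes formed another group. Of 24 genes known to respond to glucocorticoids, the stress hormones of the adrenal, 10 rose (41.7%) and 0 fell. The median was 0.43, and 0.50 without CON-P1 and CON-P3, where Tsc22d3 alone was called. Tsc22d3, the glucocorticoid-induced leucine zipper (chrX:140539528-140600659), had 39.7, 37.7, 44.6 and 39.9 CPM in CON and from 65.5 to 113 with a median of 82.7 in CON-SI and rose by 1.07 ± 0.14 (adjusted p = 0.0021). Its groups were far apart. Plin4, a lipid droplet protein, rose by 1.72 ± 0.38, Map3k6 by 1.48 ± 0.36, Zbtb16 by 0.73 ± 0.16 and Klf9 by 0.64 ± 0.15 (adjusted p = 0.038, 0.056, 0.035 and 0.051). Fkbp5, which holds the receptor back, rose by 0.41 ± 0.12 (adjusted p = 0.097), while Sgk1, another usual target, ranged from 42.4 to 169.6 CPM in CON-SI and did not pass (0.90 ± 0.31, adjusted p = 0.16). The receptor itself, Nr3c1, had 0.02 ± 0.09 (adjusted p = 0.93). Cdkn1a, Errfi1 and Per1 belong to this list and to others described here.

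Of 21 circadian clock genes, 5 rose (23.8%) and 0 fell. The median was 0.21, and 0.30 without CON-P1 and CON-P3, where Per2 alone was called. In all, 6 lists with 5 or more rises held no fall by edgeR. The immediate early factors (12 rose, 1 fell) and the growth factors (10 rose, 4 fell) were not among them. Of the 167 genes in these 6 lists, 1 had a negative estimate at an unadjusted p under 0.05. It was the mineralocorticoid receptor Nr3c2, which DESeq2 called fallen. Because the 6 lists were picked for having no fall, the scarcity of falls in them follows from that choice. Per2, a repressor arm of the clock (chr1:91415982-91459324), had 22, 28.3, 25.9 and 25.7 CPM in CON and from 41 to 72.5 with a median of 57.6 in CON-SI and rose by 1.15 ± 0.13 (adjusted p = 0.001). Per1, its relative, had 34.1, 31.1, 31.9 and 31.8 CPM in CON and from 39.9 to 74.7 with a median of 47.8 in CON-SI and rose by 0.69 ± 0.16 (adjusted p = 0.046). Cry1 (0.55), Bhlhe40 (0.64) and Nfil3 completed the risen set. The output genes Dbp and Nr1d1, whose levels swing widely with the time of day, had log2 fold changes of -0.17 ± 0.11 and -0.06 ± 0.14 (adjusted p = 0.47 and 0.87). The times of day at which tissue was taken are not given in the sources used here.

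Dio2, the deiodinase that turns thyroxine into active thyroid hormone within the brain (chr12:90724552-90738438), had 91, 58.4, 89.9 and 79.4 CPM in CON and from 146 to 252 with a median of 188 in CON-SI. The groups were wide apart, and Dio2 rose by 1.24 ± 0.15 (adjusted p = 0.0017). It is best known from astrocytes and tanycytes, and the summed astrocyte markers were 3721 to 5568 CPM in CON and 3542 to 4386 CPM in CON-SI. Ppp1r3c, a subunit that steers a phosphatase to glycogen (chr19:36731731-36736653), had 61.5, 59.3, 63.8 and 70.3 CPM in CON and from 105 to 152 with a median of 119 in CON-SI and rose by 0.95 ± 0.10 (adjusted p = 0.00047).

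The remaining genes that rose under every exclusion came from other processes. Banp, a nuclear matrix protein (chr8:121949750-122029258), had 14.2, 14.8, 14.6 and 18.3 CPM in CON and from 25.4 to 38.9 with a median of 30.3 in CON-SI and rose by 0.97 ± 0.11 (adjusted p = 0.0011). P4ha1, which hydroxylates proline in collagen (chr10:59323296-59373304), had 49.3, 50.8, 58.4 and 53.8 CPM in CON and from 78.2 to 116 with a median of 88.3 in CON-SI and rose by 0.78 ± 0.10 (0.0023). Cables1, a partner of cyclin-dependent kinases, had 8.04, 9.49, 14.2 and 10.2 CPM in CON and from 15.4 to 20.7 with a median of 18.1 in CON-SI and rose by 0.77 ± 0.13 (0.012). In Cables1 the gap was narrow, with CON-P3 the closest of the naive libraries. Rims4, a protein of the presynaptic release site (chr2:163859751-163918683), had 82, 58.3, 76.2 and 54 CPM in CON and from 86.8 to 121 with a median of 107 in CON-SI and rose by 0.66 ± 0.12 (0.016). CON-P1 and CON-P3 were its 2 highest naive libraries, and without them the log2 fold change was 0.92. Trib2, a pseudokinase (chr12:15791727-15816922), had 55.4, 60.8, 55 and 54.8 CPM in CON and from 78.7 to 94.6 with a median of 84.3 in CON-SI and rose by 0.60 ± 0.07 (0.001).

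**Figure D3:**
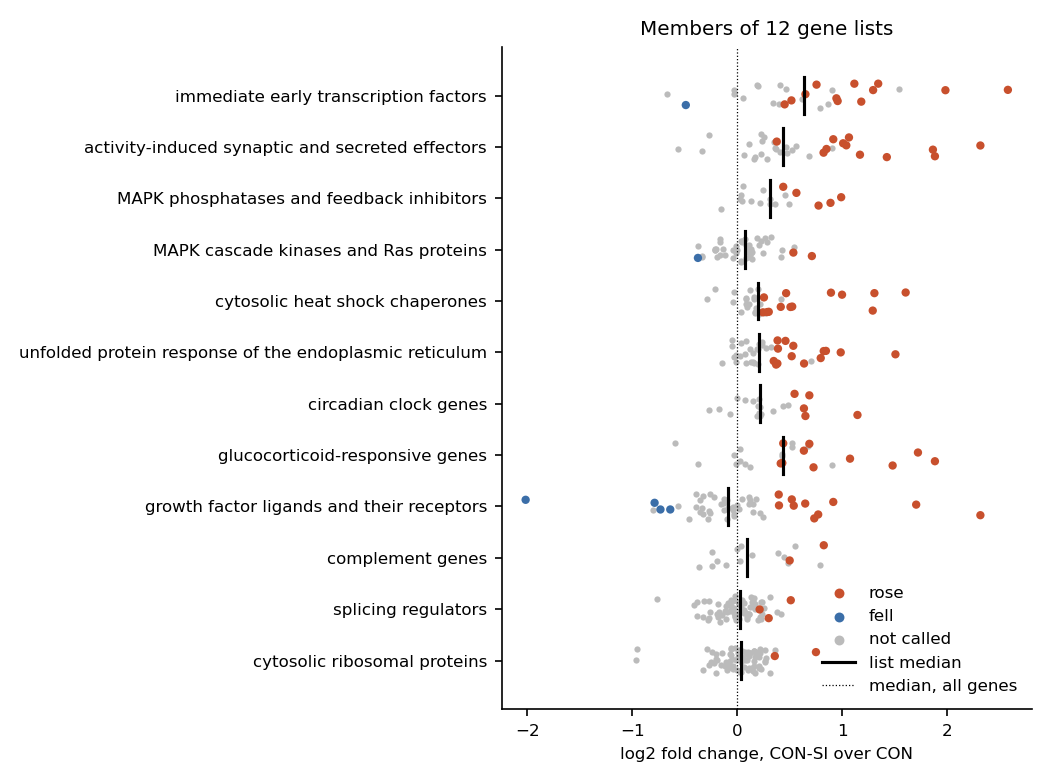
Log2 fold change of CON-SI over CON for the tested members of 12 gene lists, 1 point per gene (red rose, blue fell, grey not called), with each list's median as a black bar and the median of all genes as a dotted line. The points furthest to the right are Fosb at 2.58 and Inhba at 2.32, while splicing regulators and ribosomal proteins gather around the dotted line.

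Growth factors and their receptors moved in both directions: 10 of 51 rose (19.6%) and 4 fell (7.8%), with a median of -0.09. Without CON-P1 and CON-P3 the median was 0.0036, and 2 rises (Inhba and Bdnf) and 2 falls (Irs4 and Tgfb2) were called, so the calls of the other genes named here were lost (0.27 for Kdr, 0.27 for Pdgfrb and 0.4 for Fst as adjusted p). Besides Inhba and Bdnf, the risen ligands were Pdgfb (0.73 ± 0.14), Pdgfa (0.65 ± 0.17), Tgfb3 (0.54 ± 0.13), Hbegf (0.40 ± 0.11) and Igf1 (0.40 ± 0.10). Fst, which binds and blocks activin, rose by 1.71 ± 0.49 (adjusted p = 0.097), the same direction as the activin subunit Inhba. The risen receptor-side genes were Fgfr2 (0.52 ± 0.14) and the insulin receptor substrate Irs2 (0.77 ± 0.17). Irs4, a related substrate, went the other way, with 1.40, 3.24, 1.05 and 3.16 CPM in CON and from 0.194 to 0.977 with a median of 0.450 in CON-SI, and fell by 2.02 ± 0.40 (adjusted p = 0.024). A pair of receptors of blood vessels fell: Kdr, the VEGF receptor of endothelium (16.8, 15.4, 20.9 and 14.6 CPM in CON, from 7.18 to 13.5 with a median of 9.53 in CON-SI), by 0.79 ± 0.15 (adjusted p = 0.022) and Pdgfrb of pericytes by 0.64 ± 0.15 (0.044). The summed endothelial and pericyte markers, 282 to 358 CPM in CON and 270 to 377 CPM in CON-SI, overlapped, and 1 of the 10 (Cldn5) fell. In whole tissue, fewer cells of a type and less RNA per cell cannot be told apart.

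Complement and splicing genes were also followed by the study. Of 16 complement genes, 2 rose (12.5%, where 2.35% of all genes did). C1qa, a subunit of the recognition molecule made by microglia, had 14.5, 13.5, 14.9 and 13.8 CPM in CON and 17.8 to 24.9 in CON-SI, and rose by 0.50 ± 0.10 (adjusted p = 0.022). C1qc had 4.37, 6.40, 6.74 and 6.45 CPM in CON and from 8.55 to 14.9 with a median of 10.2 in CON-SI, and rose by 0.82 ± 0.16 (0.022), while C1qb, with 0.49 ± 0.14, missed the threshold (adjusted p = 0.1). Both calls were lost without CON-P1 and CON-P3 (0.16 and 0.2). The summed microglial markers were 206 to 249 CPM in CON and 213 to 245 CPM in CON-SI. Of 75 splicing regulators, Tra2a (0.51 ± 0.10, adjusted p = 0.022), Acin1 (0.30 ± 0.07) and Rbm10 (0.21 ± 0.06) rose, and of 77 core spliceosome proteins Dhx15 alone (0.22 ± 0.06). These are 4.0% and 1.3% of the lists, near the share over all genes, with medians of 0.03 and 0.02, and all 4 calls were lost without CON-P1 and CON-P3. Tra2a, an exon-inclusion factor, had 33.6, 38.5, 38.9 and 37.6 CPM in CON and from 45.6 to 61.9 with a median of 52.3 in CON-SI, without overlap.

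The other lists are given by their counts, to be read against the 2.35% and 1.37% of all genes that rose and fell. Of 10 genes for mitochondrial ribosomal RNA or encoded by mitochondria, 3 fell (30.0%): mt-Rnr1, mt-Rnr2 by 1.58 ± 0.41 (-0.70 without CON-P1 and CON-P3) and mt-Cytb, which codes for a subunit of the respiratory chain, by 0.59 ± 0.13 (-0.39). In CON, mt-Rnr1 and mt-Rnr2 were highest in CON-P1 and next in CON-P3, as was Gm42418. Of 67 potassium channel genes, Kcnf1, Kcnmb4 (0.48 ± 0.11) and Kcnk1 (0.52 ± 0.12) rose and Kcnj16, described below, fell, and Kcnj16 was the only gene of the lists in this paragraph still called by edgeR without CON-P1 and CON-P3. Exons of Kcnmb4 and Kcnk1 also share bases with genes on the opposite strand. Among 79 cytosolic ribosomal proteins Rps24 and Rpl13 rose, and among 79 respiratory chain subunits 1 rose. Of 52 glutamate receptor and postsynaptic genes, Homer1 rose and Camk2a fell by 0.52 ± 0.13. Of 30 genes for oxytocin, vasopressin, CRH and related receptors, Cckbr rose (0.62 ± 0.17) and Tacr1 (-0.97 ± 0.24) and Npy2r (-1.05 ± 0.29) fell. The oxytocin receptor Oxtr, often tied to social behaviour, had -0.17 ± 0.31 (adjusted p = 0.83), and the CRH receptor Crhr1 0.49 ± 0.17 (0.16). By edgeR, 0 of 23 amygdala neuropeptide precursors, 37 histones and 10 small nucleolar RNAs were called, with 6, 2 and 0 of them at an unadjusted p under 0.05 and 3, 1 and 0 called by DESeq2. Of 22 GABA genes the transporter Slc6a11 fell, of 31 vascular and Notch genes Notch1 and Nrarp fell, of 32 cholesterol genes Srebf1 fell, and of 54 matrix genes Col25a1 and Mmp14 fell.

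The fallen genes that held under every exclusion began with Kcnj16, an inward-rectifier potassium channel of astrocytes and some neurons (chr11:110968033-111027968). It had 18.4, 21.6, 21.4 and 11.3 CPM in CON and from 5.25 to 10.3 with a median of 6.34 in CON-SI, and fell by 1.43 ± 0.19 (adjusted p = 0.0021). CON-P4 was the lowest naive library and lay just above the highest CON-SI library. Zbtb20, a transcriptional repressor needed in hippocampal development (chr16:42875881-43642602), had 132, 107, 132 and 202 CPM in CON and from 70.0 to 89.2 with a median of 80.4 in CON-SI and fell by 0.83 ± 0.13 (0.0072). Tgfb2, a TGF-beta ligand (chr1:186622792-186705989), had 11, 13.5, 14.2 and 19.5 CPM in CON and from 7.78 to 10.2 with a median of 8.86 in CON-SI and fell by 0.73 ± 0.13 (0.012), a call that was lost in the fit over all 6 groups (adjusted p = 0.14). Jhy, a gene tied to motile cilia, and the pseudogene Gm3608 were near the lower limit of counting: Jhy had 1.57, 2.35, 1.05 and 1.79 CPM in CON and from 0.324 to 0.761 with a median of 0.598 in CON-SI (log2 fold change -1.57 ± 0.28), and Gm3608 1.92, 1.47, 1.49 and 2.54 CPM in CON and from 0 to 0.408 with a median of 0.210 in CON-SI (-3.06 ± 0.36).

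Several large falls were in genes used as regional markers. Dsp, a desmosome protein, and Lct, lactase, mark granule cells of the dentate gyrus. Dsp had 2.10, 2.43, 6.30 and 18.4 CPM in CON and from 0.713 to 2.35 with a median of 0.910 in CON-SI and fell by 2.60 ± 0.49 (adjusted p = 0.022), with CON-P4 the highest by far. Lct fell by 2.37 ± 0.58 (0.058). The summed level of 14 hippocampal and dentate genes, a list added after the values were seen, was 292 to 334 CPM in CON and 216 to 300.1 CPM in CON-SI, with 3 of the 13 tested fallen. Lhx9, a LIM homeobox factor on the amygdala list, had 1.40, 4.12, 2.36 and 7.07 CPM in CON and from 0.259 to 2.60 with a median of 0.844 in CON-SI and fell by 1.89 ± 0.46 (0.055). Lmo3, of the same list, fell by 0.67 ± 0.19, and 2 of 9 tested amygdala markers fell. The summed amygdala markers lay below every CON library in 7 of the 8 CON-SI libraries, and so did those of the hypothalamus and thalamus (34.3 to 50.4 CPM in CON, 14.9 to 47.5 CPM in CON-SI). Some marker lists of cell types moved the same way. Oligodendrocyte precursors (175 to 206 CPM in CON, 157 to 189 CPM in CON-SI) lay below every CON library in 6 CON-SI libraries. Excitatory neurons (1942 to 2669 and 1622 to 2315 CPM) did so in 5 and inhibitory neurons (379.8 to 433 and 350.5 to 404 CPM) in 4. Of the 8 excitatory markers, 1 (Camk2a) fell, and their median log2 fold change was -0.0004. Camk2a alone had a mean of 1309 CPM in CON and 913 CPM in CON-SI, scaled over all 6 groups. The lower excitatory sum thus follows Camk2a rather than the list as a whole. Other cell types did not move this way. Oligodendrocyte markers lay below in 3 and above in 2, and astrocyte markers below in 1. Endothelial and pericyte markers lay below in 1 and above in 1, and microglial markers in 0 either way. Striatal markers (144 to 159.9 and 119 to 179 CPM) were below in 5 and above in 1, and blood markers (65.7 to 109 and 92.3 to 146 CPM) lay above every CON library in 4. The part of dissection and of cell composition in these falls was not tested. Choroid plexus and ependymal markers reached 294 CPM in CON-P2 against 35.1 to 103 CPM in the other 11 libraries, and Folr1 of that list fell by 2.03 ± 0.51. Smoc1 (-1.48), Ecel1 (-1.55), Gkn3 (-1.33) and Baiap3 (-1.22) were other falls of over 1 log2 unit.

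**Figure D4:**
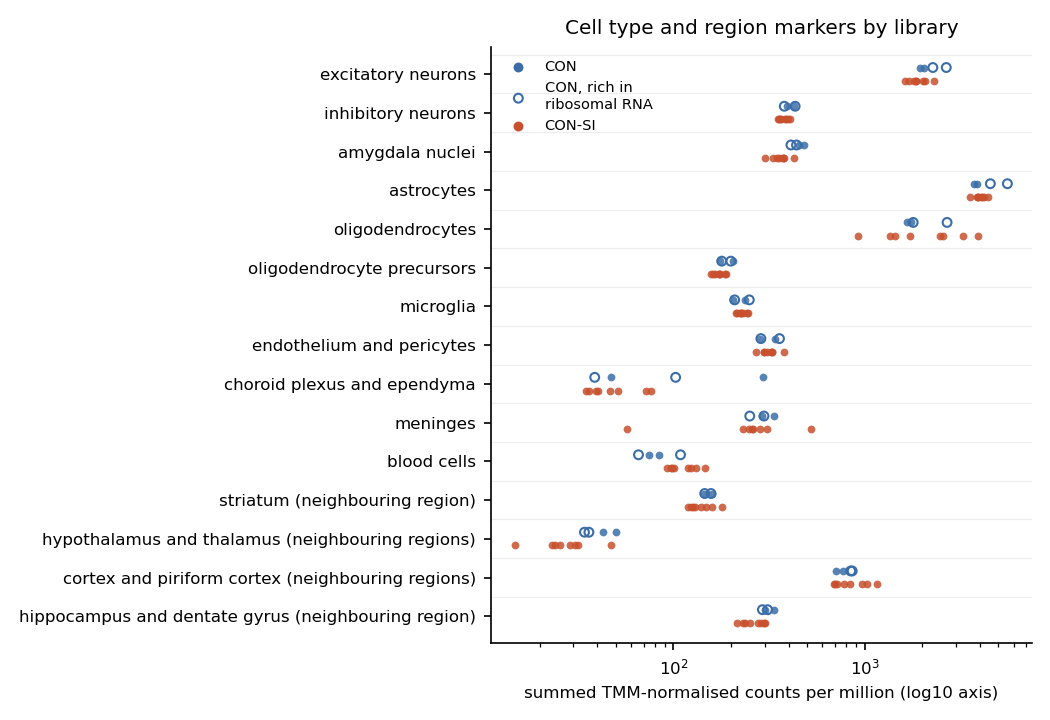
Summed TMM-normalised CPM of marker lists for cell types and neighbouring regions, by library, on a log10 axis (blue: CON, open circles CON-P1 and CON-P3; red: CON-SI). Choroid plexus and ependyma stand out in 1 CON library at 294, and the amygdala list is lower in 7 CON-SI libraries, and the hippocampal list in 6, than in any CON library.

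At the other end, the largest rises by size included transcripts with few counts. Gm14026 was at 0 in 3 CON libraries and from 0.0591 to 5.15 with a median of 3.04 CPM in CON-SI, so that its fitted log2 fold change of 6.47 depends on the constant added to counts of 0. Gm6934 and the death-associated kinase Dapk2 rose by 2.72 ± 0.64 and 2.17 ± 0.55 from under 1 CPM in CON. Gem, a small GTPase that lowers calcium channel activity, rose by 1.81 ± 0.47, Baz1a, a chromatin remodeller, by 1.55 ± 0.28 and Nostrin, a regulator of nitric oxide synthase, by 1.33 ± 0.22.

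The same genes were then read in the GF and exGF mice, whose naive and stimulated libraries (4 and 12 for GF, 4 and 8 for exGF) share none with CON. In 1 fit over all 6 groups, all 17 genes that rose under every exclusion also rose in GF-SI against GF and in exGF-SI against exGF. Fosb had a log2 fold change of 2.58 ± 0.27 in CON, 1.53 ± 0.23 in GF and 1.96 ± 0.25 in exGF. Hspa5 had 0.83 ± 0.12, 0.97 ± 0.12 and 0.95 ± 0.12, and Bdnf 0.92 ± 0.16, 1.16 ± 0.15 and 0.92 ± 0.15. Over all genes, 8.83% rose in GF and 5.23% in exGF. Of the 357 genes that rose in CON-SI, 197 rose in GF and 183 in exGF, and 326 and 346 had a positive estimate, where 49.1% and 49.7% of all genes tested did. Among the exGF libraries, exGF-P1, exGF-P2 and exGF-S7 were also rich in Gm42418 (14.3%, 6.23% and 9.25% of their counts). Without the 5 libraries rich in it, 193 of the 357 were called in GF and 106 in exGF, and 327 and 344 had a positive estimate.

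**Figure D5:**
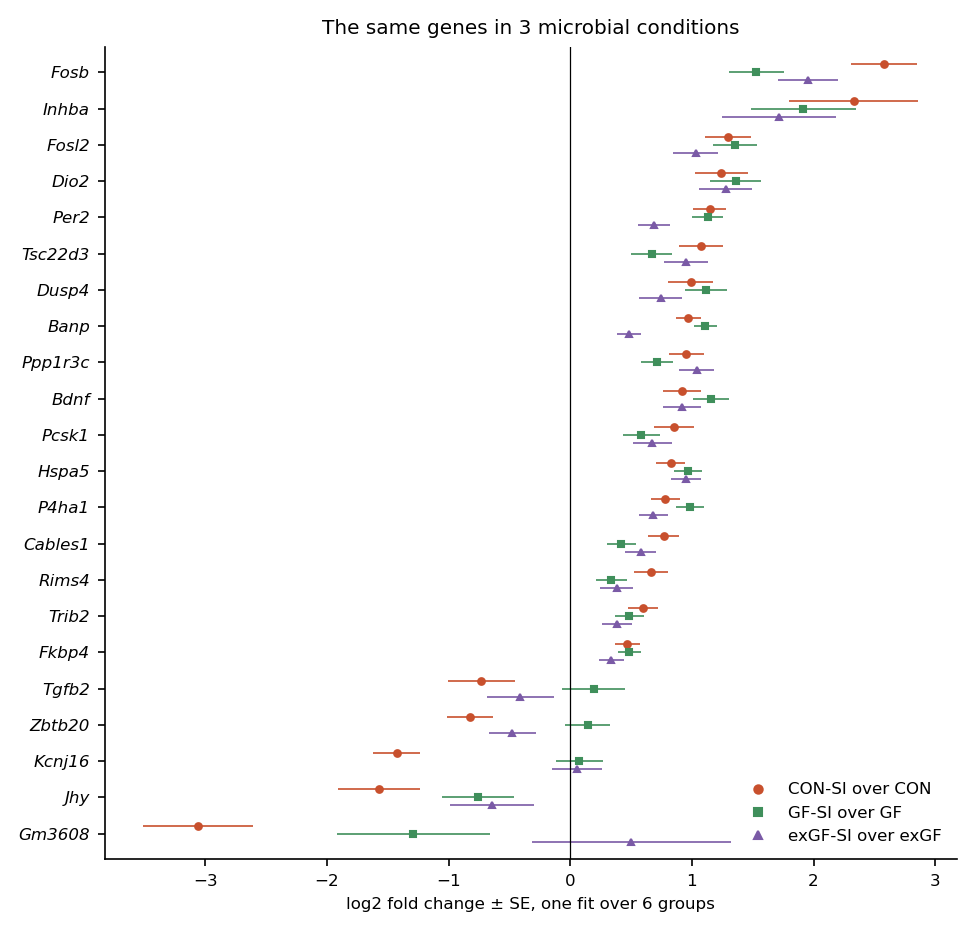
Log2 fold change ± SE of the 22 genes in CON-SI over CON (circles), GF-SI over GF (squares) and exGF-SI over exGF (triangles), from 1 fit over 6 groups. The 17 risen genes lie right of 0 in all 3 conditions, while Kcnj16 lies left of 0 in CON alone.

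The falls were read in the same way. Over all genes, 6.71% fell in GF and 3.46% in exGF. Of the 209 fallen genes, 43 fell in GF and 49 in exGF, and 141 and 193 had a negative estimate, where 50.9% and 50.3% of all genes did. Without the 5 libraries rich in Gm42418, 38 and 19 were called, and 140 and 185 had a negative estimate. Among the 5 that fell under every exclusion Jhy was called in GF (edgeR, adjusted p = 0.096), and the adjusted p in exGF was 0.14 to 0.92. For Kcnj16 the mean ± SD over the CON, CON-SI, GF, GF-SI, exGF and exGF-SI libraries (n = 4, 8, 4, 12, 4 and 8) was 18.7 ± 4.99, 6.96 ± 1.64, 7.57 ± 1.99, 8 ± 1.75, 7.58 ± 0.867 and 7.85 ± 2.32 CPM. Naive CON thus stood above the other 5 groups, which lay near each other. The same order of groups gave 17.5 ± 2.83, 10.1 ± 2.10, 10.8 ± 2.56, 11.9 ± 2.71, 14.6 ± 3.10 and 10.5 ± 2.08 CPM for Kdr, with naive CON again the highest, and 6.18 ± 1.13, 11.1 ± 2.08, 10.9 ± 2.69, 9.91 ± 2.69, 9.57 ± 1.49 and 9.30 ± 1.17 CPM for C1qc, with naive CON the lowest.

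Whether the response itself differed between CON and GF was tested as the difference of both responses in that fit. It was called for 15 of 16111 genes (0.0931%), 10 with a higher and 5 with a lower response in CON. Kcnj16 led with a difference of -1.50 ± 0.28 (adjusted p = 0.032), its response being -1.43 ± 0.19 in CON and 0.07 ± 0.19 in GF. The others with the smallest p were B3gat3, an enzyme of proteoglycan synthesis (0.54 ± 0.10, adjusted p = 0.032), Fam13c (-0.96 ± 0.19, 0.032) and the detoxifying glyoxalase Glo1 (-0.66 ± 0.13, 0.032). Glo1 had 76.9, 77.7, 75.4 and 61.4 CPM in CON and from 40.9 to 71.3 with a median of 46.4 in CON-SI. All 15 calls were lost without CON-P1 or without the 5 libraries rich in Gm42418, and between 2 and 642 were made when each other CON or CON-SI library was left out in turn. No GF or GF-SI library was left out.

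Against exGF the difference was called for 0 of 16111 genes (0%) by edgeR and 1 by DESeq2, with 939 at an unadjusted p under 0.05. For Kcnj16 it was -1.48 ± 0.29 (adjusted p = 0.13). For 3 early genes the difference from GF did not pass. Fos rose by 1.34 ± 0.36 in CON and had 0.58 ± 0.32 in GF, a difference of 0.76 ± 0.46 (adjusted p = 0.43). Egr3 had 1.12 ± 0.31 and 0.55 ± 0.28, a difference of 0.57 ± 0.41 (0.52), and Ier5 0.79 ± 0.35 and 0.65 ± 0.33, a difference of 0.14 ± 0.47 (0.92). A p that misses the threshold does not show that the responses were alike.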

How the data were processed

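RNA was ribodepleted, prepared with a strand-keeping kit outside the laboratory, and read as 100-base pairs. For library preparation the labels name 2 providers without saying which library came from which, and the methods name Vertis Biotechnology alone. Per the labels and methods, the authors trimmed reads (Trimmomatic 0.32), aligned them to GRCm38.p3 (STAR 2.4.0f1) and deposited whole-number counts per gene from HTSeq 0.6.0, set to ignore strand, with Ensembl release 78 models. Here, edgeR 4.0.16 in R 4.3.3 (TMM scaling, filterByExpr, quasi-likelihood F-test, Benjamini-Hochberg adjustment, threshold 0.1 as in the study) was run on the 12 libraries. Levels are TMM-normalised CPM. Response differences came from 1 fit over 40 libraries. Scripts were tested on simulated counts. The depth of 10479993 to 17465387 counts leaves genes of a few CPM with few counts in each library, and their values are less precise. Symbols and positions came from GENCODE vM21 (42548 of 43629 matched), promoters from RefSeq. Count columns name a group but not a labelled sample, so replicates carry no link across groups, and p-values measure the spread between these libraries. Alternatives were DESeq2 1.42.0, RLE scaling, no filter, a GC and length correction, removal of 356 ribosomal RNA genes, 1 fit over 6 groups, and leaving libraries out. Genes were named by rule: the 15 largest rises and falls of at least 1 CPM, the genes called under every exclusion, up to 4 genes of smallest p in each list and response difference, and 8 genes of the study (Fos, Arc, Egr3, Ier5, Bdnf, C1qa, C1qb and C1qc). Of the 154 genes prepared for the text, 95 met the rule, and the others, mostly further called or well-known list members, were chosen after their values were seen. The gene lists, markers and comparison were all chosen with earlier results of these data known.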

Additional observations from a re-analysis of the deposited data

Results flagged for a closer look

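Single libraries stood apart from the rest of their group (Dixon's test at the 95% level) in 13 of 134 groups of values looked at, where chance flags about 1 in 20. In CON these were CON-P4 for Banp (18.3 CPM, high) and Glo1 (61.4 CPM, low), CON-P2 for Trib2 (60.8 CPM, high), CON-P3 for Homer1 (329.9 CPM, high) and the summed oligodendrocyte markers (2694 CPM, high), and CON-P1 for C1qc (4.37 CPM, low). In CON-SI they were CON-S11 for Banp (38.9 CPM), CON-S2 for Kcnj16 (10.3 CPM), and CON-S5 for C1qa (24.9 CPM) and Glo1 (71.3 CPM), all high. CON-S7 was high for Gm42418 (12400 CPM), mt-Rnr1 (10210 CPM) and the share of mitochondrial ribosomal RNA (8.92%).

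The response to social interaction differed between CON and GF for 15 genes (edgeR, 1 fit over 6 groups, adjusted p at most 0.1), none of which was called without CON-P1. The log2 response in CON minus that in GF was -1.50 for Kcnj16, -1.04 for Gm22442, -0.96 for Fam13c, -0.66 for Glo1 and -0.53 for Polr3b. It was 0.83 for Dennd6b, 0.83 for Lrfn4, 0.75 for Gpaa1, 0.70 for Fbxo44, 0.68 for Tcte2, 0.66 for Fbxl4, 0.63 for Tmem132a, 0.62 for Atp6v0b, 0.59 for Htr5a and 0.54 for B3gat3. Of the 15, 5 were also called in CON-SI against CON.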

How the results depend on the processing

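No paired analysis was possible because the count columns carry numbers that the labels tie to no replicate, and pools of naive animals have no partner among single CON-SI animals. Over 15220 genes, 357 rose and 209 fell (155 and 134 by over 0.5 log2). DESeq2 called 620 and 342, the fit over 6 groups 627 and 342, and the fit without a filter on low counts 130 fallen genes. Without CON-P1 and CON-P3, 18 rose and 8 fell (17 and 8 by over 0.5), with 2 CON libraries left. With each library left out in turn, 124 to 459 rose and 54 to 319 fell (79 to 210 and 45 to 209 by over 0.5). The counts that rose and fell were 158 and 89 without CON-P1, 124 and 74 without CON-P2, 140 and 54 without CON-P3, 179 and 95 without CON-P4, 214 and 99 without CON-S11 and 229 and 119 without CON-S6. The fallen genes alone numbered 127 without CON-S10, 129 without CON-S3, 132 without CON-S5 and 319 without CON-S2. By over 0.5 log2, 91, 79 and 98 rose without CON-P1, CON-P2 and CON-P3, and 77, 57, 45, 76, 88, 70, 209 and 86 fell without CON-P1, CON-P2, CON-P3, CON-P4, CON-S10, CON-S11, CON-S2 and CON-S6. Genes whose response differed from GF numbered 15, against 495 by DESeq2, 35 with RLE scaling, 0 without the 5 libraries of the series rich in Gm42418, and 0 to 642 with single CON or CON-SI libraries left out (642 when CON-S7 was left out, 487 for CON-P4, 402 for CON-S2, 65 for CON-S12, 7 for CON-S11, 6 for CON-S5, 5 for CON-S10, 5 for CON-S3, 2 for CON-P3 and 0 for CON-P1). From exGF they numbered 0, against 1 by DESeq2 and 0 to 1 with single CON or CON-SI libraries left out (1 without CON-P4, CON-S2 or CON-S5). The causes were not tested. Genes of a few CPM, such as Jhy and Gm3608, rest on few counts.

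The sign turned without CON-P1 and CON-P3 for Gm42418 (1.90), Lars2 (1.53), Gm24187 (1.40), Gm23935 (1.90), Gm24270 (2.92) and Mir6236 (2.51). For Gm42418 the positive value rested largely on CON-S7. Of the 138 called genes prepared for the text, 136 stayed called in the same direction under DESeq2, 138 with RLE scaling, 131 without a filter, 132 with the GC and length correction, 123 in the fit over 6 groups and 26 without CON-P1 and CON-P3. The median of all genes stayed between -0.05 and 0.02 log2 under every setting.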
